A study of Rattus norvegicus with 6 samples.

Results

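The members described here are 10 genes of the circadian clock, the cell-autonomous oscillator that gives many transcripts a daily rhythm: Arntl, Npas2, Per1, Per2, Per3, Cry1, Nr1d1, Nr1d2, Dbp and Tef. They were taken by symbol from a table of 17487 gene symbols, and all 10 were among the 9205 symbols that passed the filter on low counts. They were chosen by their levels in these same 6 libraries, which set 2 of the 3 doxorubicin hearts apart, so levels and fold differences are given as a description, without a test. The samples were 6 hearts of adult male Wistar rats, an outbred laboratory strain. The doxorubicin group comprised 3 rats given doxorubicin hydrochloride, an anthracycline used against tumours and known for its cardiac toxicity, at 3.75 mg/kg once a week into the tail vein, over 4 weeks. The 3 control rats were injected with 0.9% saline on that schedule. The libraries are called C1, C2 and C3 for control and D1, D2 and D3 for doxorubicin, numbered as the labels number the replicates.

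In the heart, as in other tissues, the clock is a feedback loop of transcription. Bmal1, the product of Arntl, pairs with Clock or Npas2 and binds E-box sequences, which switches on the Per, Cry, Nr1d, Dbp and Tef genes. Per and Cry proteins return to the nucleus and block Bmal1, and the Nr1d proteins, known as REV-ERBs, bind a sequence called RORE and repress Arntl, Npas2 and Cry1. Transcripts of the activators and of the E-box targets therefore peak at opposite times of day. The time of day at which the hearts were taken, the interval since the last injection, the feeding state and the part of the heart sampled were not given in the sources used here. With 1 heart per rat, a shifted rhythm, a changed amplitude and another hour of collection cannot be told apart.

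The libraries held 2219685 to 3508282 counts. Levels are given as CPM, read counts relative to library size after scaling by trimmed mean of M-values (TMM). A count of 3, taken as the smallest detectable, stood for 0.855 to 1.35 CPM. Intervals are exact 95% Poisson intervals or intervals of a ratio of counts, and they cover counting error only, since reads without molecular identifiers are not independent molecules. In bulk heart tissue, fewer cells of a type and less RNA per cell cannot be told apart. Cardiomyocyte markers (6 of 6 detected) summed to 85329 to 91832 CPM in control and 83861 to 96069 CPM in doxorubicin libraries. Of that list, Myh6, Myh7 and Ryr2 had D1 and D3 outside the other 4 libraries, Myh7 above and Myh6 and Ryr2 below. A placing above held for 8.61% of all tested genes and a placing below for 10.2%. Myh7 was at 28291, 11993 and 20432 CPM in D1, D2 and D3 against 3450 to 8298 CPM in control. Ryr2 was at 201, 320 and 166 CPM against 549 to 785 CPM. For Myh7 and Ryr2, D2 was thus also beyond all controls.

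The clock transcripts separated D1 and D3 from the other 4 hearts, and D2 lay near the controls. For 9 of the 10 genes the levels in D1 and D3 lay both above or both below all 4 other libraries. The 6 genes higher in D1 and D3 were Per2, Per3, Nr1d1, Nr1d2, Dbp and Tef, and such a placing above the other 4 libraries held for 8.61% of all tested genes. The 3 lower genes were Arntl, Npas2 and Cry1, and a placing below held for 10.2% of all tested genes. Relative to the control mean, the 6 higher genes were at 1.3-fold to 7.31-fold in D1, 1.7-fold to 8.37-fold in D3 and 0.491-fold to 1.57-fold in D2. The 3 lower genes were at 0.18-fold to 0.456-fold in D1, 0.153-fold to 0.468-fold in D3 and 0.937-fold to 1.23-fold in D2. A gap of at least 2-fold between the libraries D1 and D3 and all others was present for 5 of the 10, namely Per3, Nr1d2, Dbp, Arntl and Cry1, and for 0.217% of all tested genes. By side, the 3 members above compare with 0.12% of tested genes and the 2 below with 0.0978%. Since the members were chosen for this pattern, nothing is read from these counts.

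**Figure D1:**
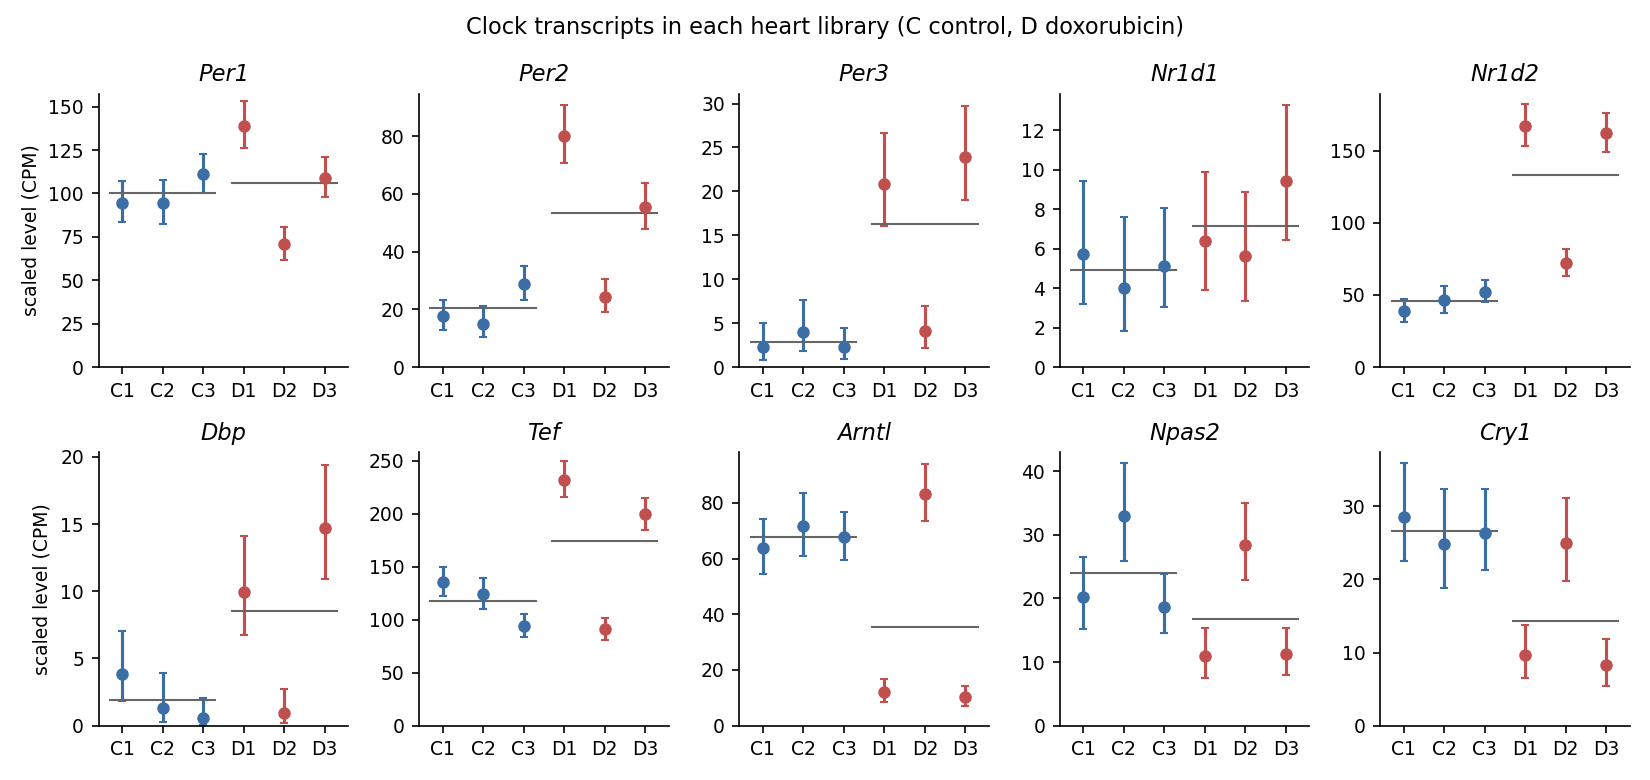
Level of each clock transcript (CPM, linear axes from 0) in control libraries C1 to C3 (blue) and doxorubicin libraries D1 to D3 (red); bars are exact 95% Poisson intervals and grey lines are group means. Arntl stood at 12.2 and 10.3 CPM in D1 and D3 and at 63.8 to 83.3 CPM elsewhere, while Per3 stood at 20.9 and 23.9 CPM in D1 and D3 and at 2.27 to 4.06 CPM elsewhere.

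Arntl, the activator gene of the loop, had 63.8, 71.5 and 67.6 CPM in C1, C2 and C3 and 12.2, 83.3 and 10.3 CPM in D1, D2 and D3. D1 and D3 were far below every other heart, and D2 was the highest of the 6, so the groups overlapped. The group means were 67.6 ± 3.88 and 35.3 ± 41.6 CPM (SD, n = 3). On the log2 scale the difference was -0.94 (SE 0.86), a standard error nearly as large as the difference. It was -2.57 without D2, -0.53 without D1 and -0.49 without D3. The 3 control hearts lay close together, with a range of 0.16 on the log2 scale.

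Npas2, which can stand in for Clock as the partner of Bmal1, had 20.2, 32.9 and 18.7 CPM in the controls and 10.9, 28.4 and 11.2 CPM in D1, D2 and D3. Again D1 and D3 were the lowest of the 6 and D2 lay within the control range. Doxorubicin differed from control by -0.50 (SE 0.37) on the log2 scale, with -1.09 when D2 was left out, -0.26 when either D1 or D3 was, and -0.20 when C2 was. The counting intervals of D3 (7.93 to 15.4 CPM) and of C3 (14.5 to 23.8 CPM) overlapped.

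Cry1, a repressor that is also a REV-ERB target and lags the other repressors, was placed like the activators. It had 28.6, 24.9 and 26.4 CPM in the controls and 9.63, 25 and 8.25 CPM in D1, D2 and D3. D2 lay inside the control range and D1 and D3 were the lowest. Its log2 difference was -0.90 (SE 0.36), with -1.56 without D2, -0.68 without D1 and -0.61 without D3.

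Among the Period genes, which encode the main partners of Cry in repression, Per3 showed the widest separation. Per3 had 2.29, 4 and 2.27 CPM in the controls, from 6, 9 and 8 counts, and 20.9, 4.06 and 23.9 CPM in D1, D2 and D3, from 65, 13 and 81 counts. D2 was only just above the highest control, so the groups did not overlap, but D2 and C2 were not distinguishable at this depth. The log2 difference was 2.53 (SE 0.58). Per2 had 17.6, 15.1 and 28.7 CPM in the controls and 80.2, 24.3 and 55.4 CPM in D1, D2 and D3. D1 and D3 were the highest of the 6, and D2 lay between C1 and C3. The log2 fold change of Per2 was 1.36 (SE 0.38).

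Per1 did not have D1 and D3 both above the other 4 libraries, as Per2 and Per3 did. Besides the clock, Per1 also responds directly to glucocorticoids and to cAMP signalling. It had 94.7, 94.6 and 111 CPM in the controls and 139, 70.8 and 109 CPM in D1, D2 and D3, so D1 was the highest, D2 the lowest and D3 within the control range. The counting intervals of D3 (98.2 to 121 CPM) and C3 (100 to 123 CPM) overlapped, so the order of D3 and C3 was not distinguishable at this depth. The group means were 100 ± 9.45 and 106 ± 34.2 CPM (SD, n = 3), with a log2 fold change of 0.08 (SE 0.23). That value was -0.15 without D1. When counts were scaled by library size alone, D1 and D3 lay above the other 4 libraries for Per1 too.

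The REV-ERB gene Nr1d2 had 38.6, 46.2 and 52.3 CPM in the controls and 167, 71.8 and 162 CPM in D1, D2 and D3. All 3 doxorubicin hearts were above all 3 controls, with D1 and D3 more than 2-fold above D2. The group means were 45.7 ± 6.86 and 133 ± 53.5 CPM (SD, n = 3), which differed by 1.54 (SE 0.28) on the log2 scale. Nr1d2 and Per3 were the 2 of 10 members whose groups did not overlap, both with doxorubicin above, a placing that held for 6.39% of all tested genes. The reverse placing, doxorubicin below, held for 0 members and 7.06% of tested genes.

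Nr1d1, the closely related REV-ERB gene, was measured far less well, with 9 to 32 counts in each library, summed over its 2 table rows. It had 5.73, 4 and 5.11 CPM in the controls and 6.42, 5.62 and 9.43 CPM in D1, D2 and D3. D3 and D1 were the highest, but the interval of D1 (3.92 to 9.91 CPM) covered all 3 controls, so a difference between D1 and the controls was not detectable at this depth. The RefSeq span of Nr1d1 overlaps that of Thra, a thyroid hormone receptor gene on the same chromosome, and how the counting treated reads in the shared stretch was not stated. The log2 difference was 0.52 (SE 0.40), and 0.28 without D3. RefSeq spans also overlap for Cry1, with the protein-coding LOC120093541, and for Per2 and Npas2, with lncRNA genes. Whether these overlapping genes were in the annotation used for counting is not known, so the same limit may hold for those counts.

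Dbp and Tef encode PAR-domain bZIP factors, which carry the rhythm to downstream genes through D-box sequences. Dbp had 3.82, 1.33 and 0.568 CPM in the controls, from 10, 3 and 2 counts, and 9.95, 0.936 and 14.7 CPM in D1, D2 and D3, from 31, 3 and 50 counts. D1 and D3 were above every other heart, and D2 lay among the controls. For Dbp the log2 difference was 2.20 (SE 0.81). Dbp and Per3 reached 10 counts in only 3 libraries each, D1 and D3 among them, so passing the low-count filter depended on the hearts in which the transcript was high.

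Tef was the best counted member, at 279 to 724 counts. It had 136, 124 and 94 CPM in the controls and 232, 91.1 and 200 CPM in D1, D2 and D3. D1 and D3 were the highest and D2 the lowest of the 6. Tef differed by 0.57 (SE 0.29) on the log2 scale, with 0.31 without D1 and 0.89 without D2. Over the 10 members the median log2 fold change was 0.55, with 7 above and 3 below 0, against a median of 0.02 over all tested genes.

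A ratio of 2 transcripts within a library does not depend on library scaling, and 3 pairs were formed after the levels were seen, each of a gene of the lower set over a gene of the upper set. There were 1.65, 1.55 and 1.29 Arntl counts for each Nr1d2 count in C1, C2 and C3. In D1, D2 and D3 the ratio was 0.0732 (interval 0.0512 to 0.102), 1.16 (0.97 to 1.39) and 0.0636 (0.0439 to 0.0896). The lowest of the 4 other libraries was thus 15.9-fold above the higher of D1 and D3. The Cry1 to Per2 ratio was 1.63, 1.65 and 0.921 in the controls and 0.12, 1.03 and 0.149 in D1, D2 and D3, a gap of 6.18-fold. The Npas2 to Tef ratio was 0.149, 0.265 and 0.199 in the controls and 0.047, 0.312 and 0.056 in D1, D2 and D3, a gap of 2.66-fold. In each of the 3 pairs D1 and D3 were the lowest libraries. That placing was fixed by how the pairs were formed, so nothing is read from it or from the size of the gaps. D2 was inside the control range for Cry1 to Per2, just below it for Arntl to Nr1d2 and above it for Npas2 to Tef. These ratios compare libraries with each other and do not rank the genes of a pair, whose transcripts differ in length.

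**Figure D2:**
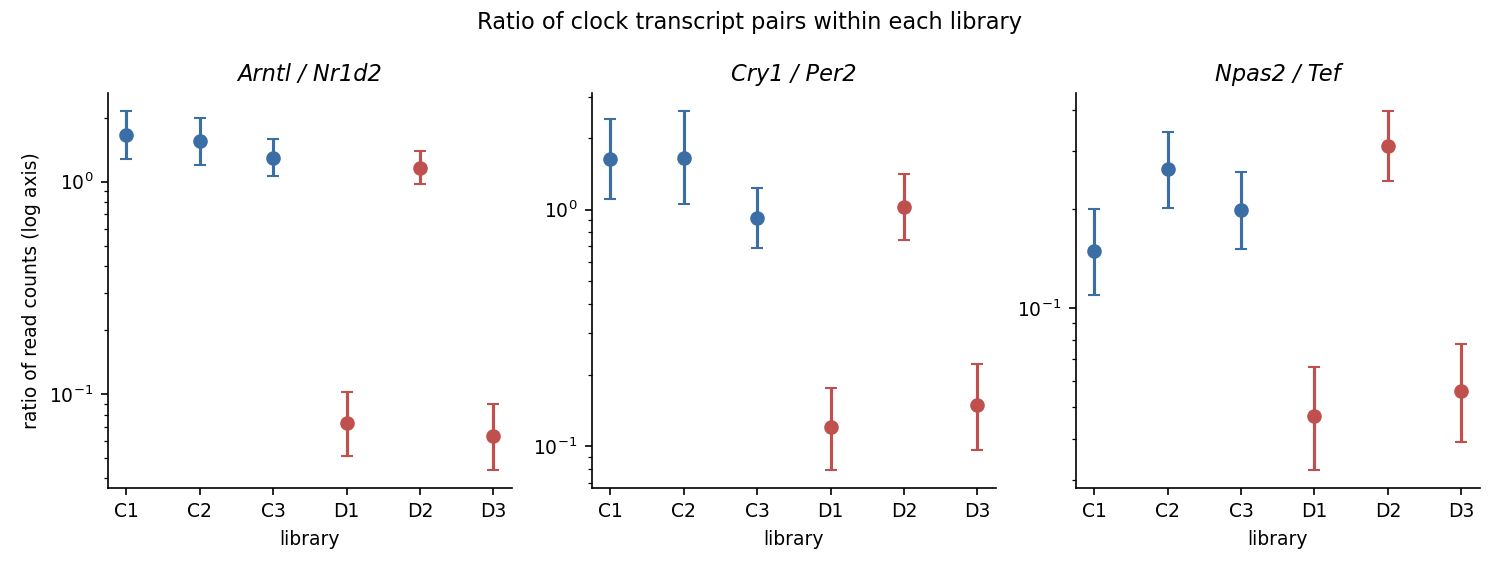
Ratio of read counts of 3 pairs of clock transcripts (log axes) in each control (blue) and doxorubicin (red) library, with exact 95% intervals of the ratio. D1 and D3 lie below the other 4 libraries in each panel, at 0.0732 and 0.0636 for Arntl over Nr1d2 against 1.16 to 1.65. The pairs were formed after the levels were seen, which fixed this placing.

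With D2 apart from D1 and D3, all 10 clock genes had a wider range within the doxorubicin group than within the control group. The range among the doxorubicin libraries, highest minus lowest log2 CPM, was at least 1, a 2-fold spread, for 8 of the 10 members and for 14.4% of all tested genes. Among the control libraries it was at least 1 for 1 member, Dbp, and for 14.5% of all tested genes. The median range of the members was 0.49 in control and 1.43 in doxorubicin, against 0.52 and 0.49 over all tested genes. Arntl combined a control range of 0.16 with a doxorubicin range of 2.94, and 11 tested genes, Arntl and Dbp included, had a doxorubicin range at least that wide. Only Per1 and Nr1d1 among the members had doxorubicin ranges under 1, at 0.97 and 0.68. The members were chosen for a difference among doxorubicin libraries, so wide ranges there were built in and nothing is read from these counts.

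**Figure D3:**
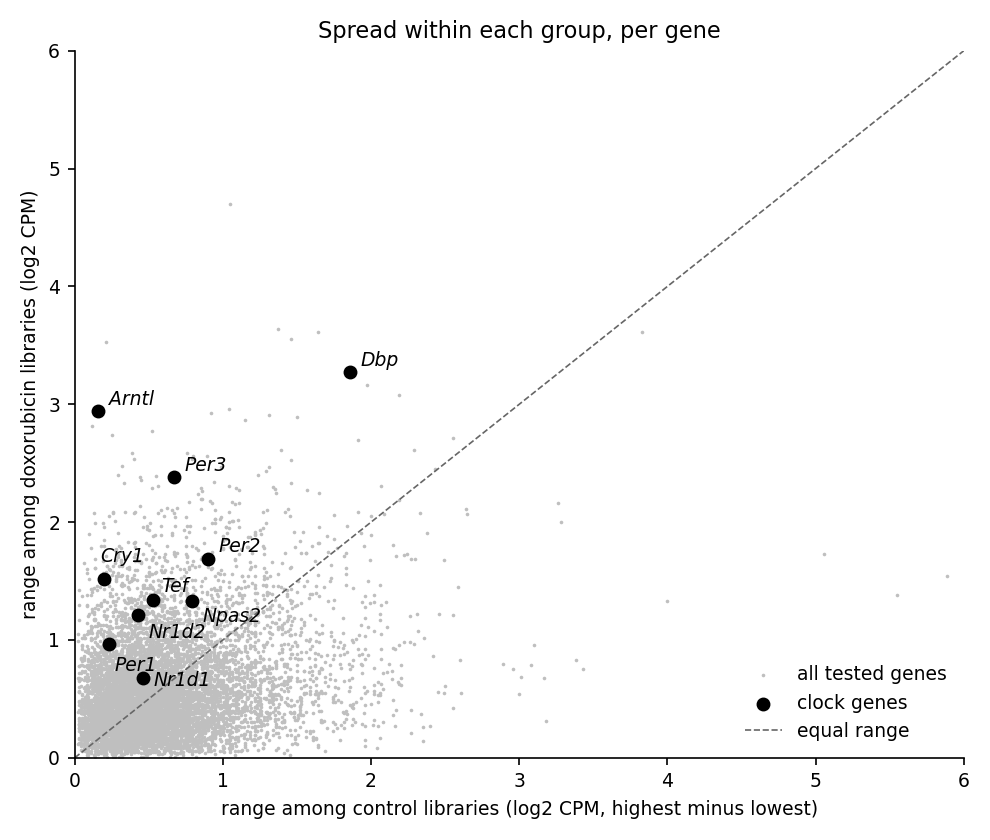
Range of log2 CPM among the 3 control libraries (horizontal) and among the 3 doxorubicin libraries (vertical) for each tested gene (grey) and each clock gene (black); the dashed line marks equal ranges. All 10 clock genes lie above the line, with Arntl at 0.16 and 2.94 and Dbp at 1.86 and 3.27. The clock genes were chosen for a difference among these doxorubicin libraries.

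D2 was close to the controls but not the same in every gene. Its level lay inside the control range for 5 members (Per2, Nr1d1, Dbp, Npas2 and Cry1). It was above that range for Per3, Nr1d2 and Arntl, at 4.06, 71.8 and 83.3 CPM against highest control values of 4, 52.3 and 71.5 CPM. It was below the range for Per1 and Tef, at 70.8 and 91.1 CPM against lowest control values of 94.6 and 94 CPM.

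D1 and D3, which the choice of members had already set together, were also compared with each other. The ratio of the level in D3 to that in D1 ran from 0.69 to 1.48, and its interval held 1 for 7 of the 10. The 3 others were all lower in D3: Per1 at 0.785 (interval 0.681 to 0.903), Per2 at 0.69 (0.568 to 0.838) and Tef at 0.86 (0.773 to 0.956). Nr1d2 was equal within 0.861 to 1.1. For Dbp, at 1.48 (0.928 to 2.4), and Nr1d1, at 1.47 (0.815 to 2.71), the counts were too few to tell the libraries apart. Per3 (0.815 to 1.61), Arntl (0.519 to 1.38), Npas2 (0.629 to 1.68) and Cry1 (0.493 to 1.48) had 28 to 81 counts in these libraries. Their intervals were too wide to show likeness. With 1 heart on each side these intervals carry no variation between animals.

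**Figure D4:**
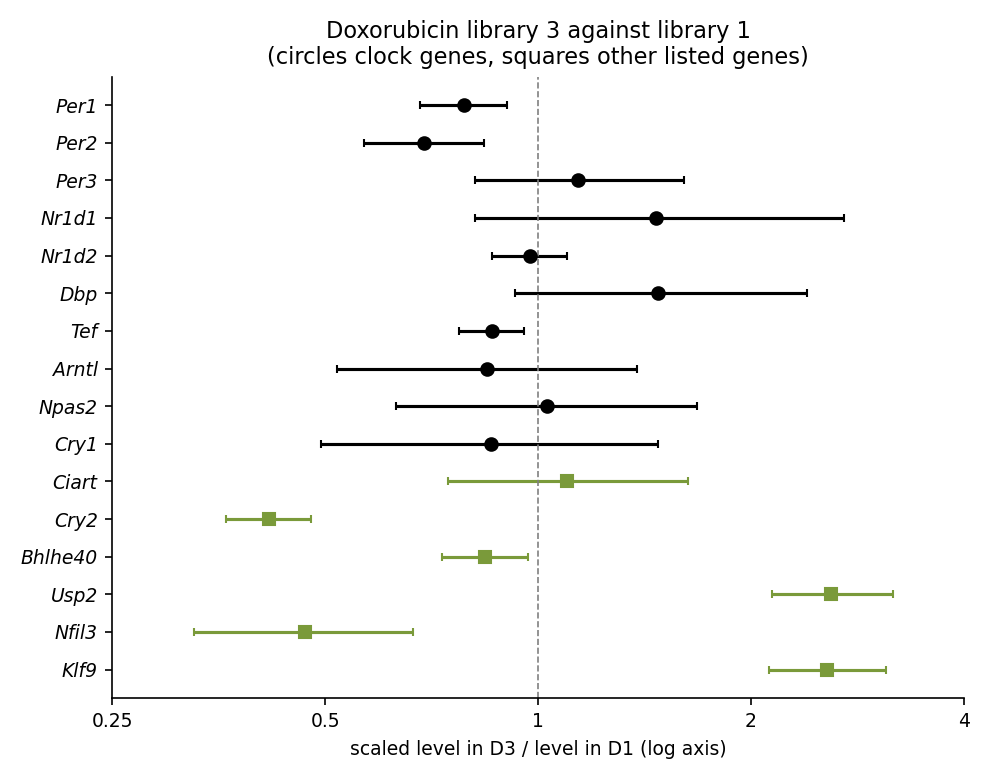
Level in doxorubicin library D3 divided by the level in D1 (log axis) for the 10 clock genes (black circles) and 6 other listed genes (green squares), with exact 95% intervals for counting error. Per1, Per2 and Tef lie below 1, the other clock genes have intervals that hold 1, and Cry2, Nfil3, Usp2 and Klf9 lie farthest from it.

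Promoter sequences were taken from RefSeq (build GRCr8), which held 9 of the 10 members and not Cry1; Arntl is listed there as Bmal1. The 250 bases before each transcript start were searched on both strands for the E-box CACGTG, its variant CACGTT (called the E-prime box), the D-box TTANGTAA and the RORE consensus. The letters of at least 1 of these stood in 4 of the 9 members, and not in Per1, Per3, Nr1d2, Dbp or Npas2. The share of all windows with at least 1 of them was not computed. The E-box was in Tef and, at its second listed start, in Nr1d1; it stood in 5.59% of 33469 promoter windows of this length. The E-prime box was in Per2 and in Nr1d1 at its first start, against 4.07% of windows, and the D-box was in Per2, against 2.04%. The RORE was in Arntl, against 0.317%. A match describes letters and not a bound site, and the lack of a match says only that these letters are not in this window.

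**Figure D5:**
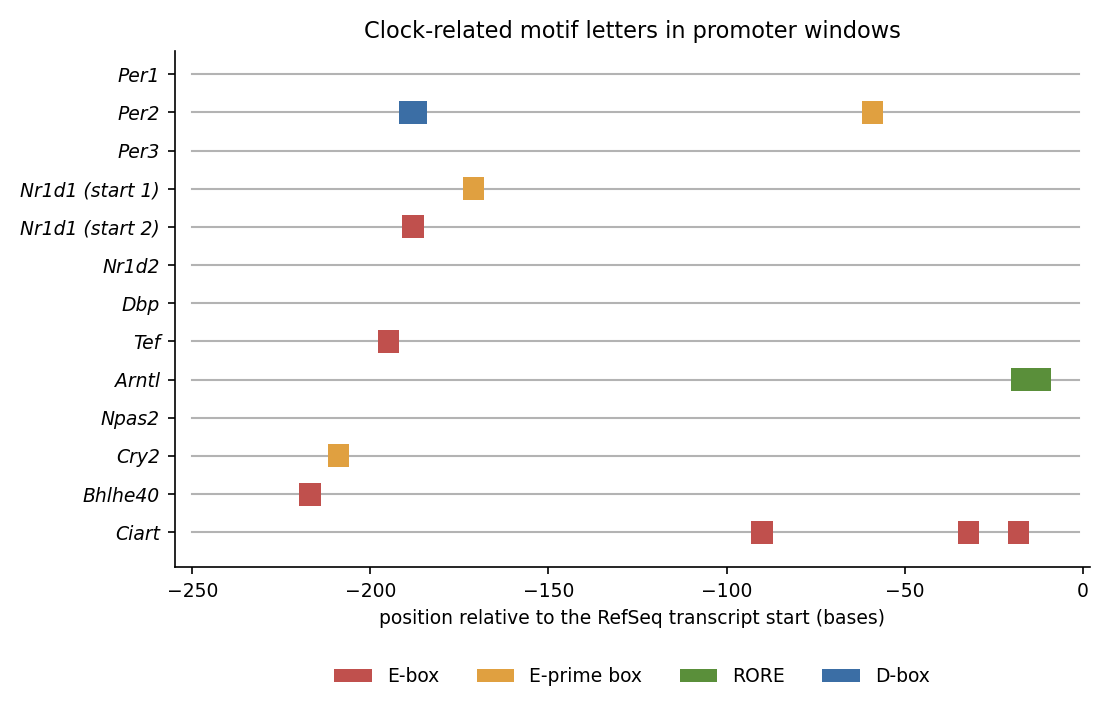
Position of E-box, E-prime box, D-box and RORE letters in the 250 bases before the RefSeq transcript starts of 9 clock genes and of Cry2, Bhlhe40 and Ciart; the horizontal axis is the distance from the start in bases. The RORE of Arntl begins 20 bases before the start, and Ciart has 3 E-boxes in the last 100 bases.

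E-boxes also stood in Bhlhe41, which is absent from the counts, and in Sirt1 and Gsk3b. In Sirt1 and Gsk3b, D1 and D3 did not lie outside the other libraries. The windows shown were picked with the levels known. They are those of Arntl, the lowest member in D1 and D3 relative to control, and of Per2 and Tef from the upper set. Bhlhe40 and Ciart, listed clock genes outside the 10 that had the same placing, are also shown. Capitals mark the RORE in Arntl, the E-prime box in Per2 and the E-boxes in Tef, Bhlhe40 and Ciart. The windows lie on chr1:176766228-176766327 (+) for Arntl, chr9:99497003-99497102 (-) for Per2, chr7:115206582-115206681 (+) for Tef, chr4:143174200-143174299 (+) for Bhlhe40 and chr2:186112247-186112346 (-) for Ciart.
Arntl: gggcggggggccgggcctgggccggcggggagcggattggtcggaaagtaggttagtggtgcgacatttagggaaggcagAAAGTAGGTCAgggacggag
Per2: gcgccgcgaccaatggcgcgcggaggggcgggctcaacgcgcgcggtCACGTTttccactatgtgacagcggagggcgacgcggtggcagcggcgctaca
Tef: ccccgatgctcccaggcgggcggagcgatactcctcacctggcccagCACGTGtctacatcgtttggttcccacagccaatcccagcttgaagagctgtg
Bhlhe40: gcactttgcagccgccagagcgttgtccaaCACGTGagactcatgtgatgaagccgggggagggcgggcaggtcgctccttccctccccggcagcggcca
Ciart: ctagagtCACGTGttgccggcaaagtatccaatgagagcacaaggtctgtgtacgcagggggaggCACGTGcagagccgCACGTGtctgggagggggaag

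A list of 24 other clock genes was examined in the fit of doxorubicin against control over all genes. In edgeR's quasi-likelihood test with Benjamini-Hochberg adjustment, 5 of all 9205 genes (0.0543%) had an adjusted p under 0.05, with 2 higher (0.0217%) and 3 lower (0.0326%), and 8.1% had an unadjusted p under 0.05. Of the 24, 13 were tested, 0 passed in either direction, 2 had an unadjusted p under 0.05, and DESeq2 called 1, Bhlhe40. The median log2 fold change of the 13 was 0.22, with 9 above and 4 below 0. Clock, the usual partner of Bmal1, was listed at 0 in all libraries on both of its rows, and Rorb and Nono were also at 0. For any gene listed at 0, whether the transcript was absent or only not counted was not tested.

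Bhlhe40, a repressor gene that is itself an E-box target, had 37, 37.3 and 40.9 CPM in the controls and 137, 44.6 and 116 CPM in D1, D2 and D3. All doxorubicin hearts were above the controls, D1 and D3 more than 2-fold. Doxorubicin exceeded control by 1.37 (SE 0.32) on the log2 scale, and the adjusted p in edgeR was 0.158. Ciart, a repressor of Bmal1 activity, had only 2, 3 and 5 counts in the controls and 51, 1 and 61 counts in D1, D2 and D3, or 16.4 and 18 CPM in D1 and D3 against at most 1.42 CPM elsewhere. The low-count filter left Ciart out of the test.

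Cry2, the paralog of Cry1, had 64.2, 82.6 and 58.5 CPM in the controls and 214, 55.5 and 89.3 CPM in D1, D2 and D3, with a log2 fold change of 0.81 (SE 0.41, adjusted p 0.661 in edgeR). That value rested on D1: it was 0.09 without D1 and 1.17 without D2, whereas D3 left out gave 1.00. D1 and D3 were the highest but differed from each other, with a D3 to D1 ratio of 0.416 (0.362 to 0.478). Nfil3, a D-box repressor that opposes Dbp and Tef, had 46.6, 48.4 and 49.4 CPM in the controls and 31.5, 46.2 and 14.7 CPM in D1, D2 and D3. The doxorubicin hearts were below the controls, D2 barely so. On the log2 scale they differed by -0.65 (SE 0.31), and the adjusted p in edgeR was 0.621. The value was -0.30 without D3 and -1.05 without D2. Usp2, a deubiquitinase gene that acts on clock proteins, had 27.9, 34.7 and 35.8 CPM in the controls and 44.9, 35.3 and 117 CPM in D1, D2 and D3. D1 and D3 were the highest, D3 by far, and the log2 fold change was 1.00 (SE 0.37) with an adjusted p in edgeR of 0.477. Without D3 the value for Usp2 was 0.30. The casein kinase genes Csnk1d and Csnk1e, whose products mark Period proteins for turnover, differed by 0.01 (SE 0.22) and -0.01 (SE 0.22) on the log2 scale, signs that flipped under other scaling or a left-out library. Hlf, another PAR bZIP gene, had at most 3 counts in any library, and no difference was detectable at that depth.

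Of 24 transcripts listed as rhythmic in heart or in many tissues, 20 were tested. Ucp3, a mitochondrial uncoupling protein gene, was the 1 that passed, with a log2 fold change of -2.73 (SE 0.35, adjusted p 0.0194 in edgeR). Its levels were 35.5, 30.7 and 52.5 CPM in the controls and 2.89, 8.74 and 6.19 CPM in D1, D2 and D3, so that D2 was also low, unlike its clock transcripts. That call was lost when C1, C3, D1 or D3 was left out or counts were scaled by library size alone. Pdk4, a kinase gene that limits glucose oxidation, was lower in all doxorubicin hearts, at 37.2, 60.2 and 67.2 CPM against 119 to 260 CPM in the controls. Its log2 difference was -1.64 (SE 0.30), and the adjusted p in edgeR was 0.0791. In 4 of the 20 genes (Tspan4, Nampt, Klf9 and Coq10b) D1 and D3 lay above the other libraries, against 8.61% of all tested genes, and in 2 (Ucp3 and Cdkn1a) below, against 10.2%. A gap of 2-fold was present for 0 of the 20, against 0.217%. An unadjusted p under 0.05 was reached by 5 of the 20, against 8.1% of all tested genes, and the median log2 fold change was 0.11, with 12 above and 8 below 0.

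Since Per1 also answers to glucocorticoids and cAMP, 14 glucocorticoid response genes and 10 immediate early genes were set beside it. Of the glucocorticoid genes 11 were tested and 0 passed in edgeR, with 6 at an unadjusted p under 0.05 against 8.1% of all tested genes, and DESeq2 called 1, Pdk4. The median log2 fold change of the 11 was -0.35, with 3 above and 8 below 0. Klf9, Cdkn1a and Pdk4 are also in the list of rhythmic transcripts, and each had an unadjusted p under 0.05, so the 2 lists are not independent. Zbtb16, 1 of those above 0, was at 8.35, 9.98 and 27.1 CPM in D1, D2 and D3 against 5.78 to 7.64 CPM in control. Mt1, a metallothionein gene, was at 27.9, 39.6 and 25.6 CPM in D1, D2 and D3 against 44.3 to 57.4 CPM in control, lower in all 3. Fkbp5, a sensitive target of the glucocorticoid receptor, had 68, 87.1 and 70.4 CPM in the controls and 77.7, 57.4 and 91.7 CPM in D1, D2 and D3. D2 was the lowest heart for Fkbp5, as it was for Per1, Tef and Cry2. Whether glucocorticoids had a part in the Per1 levels was not tested. Klf9, a factor that answers to both the clock and glucocorticoids, was at 47.2, 38.7 and 121 CPM in D1, D2 and D3 against 18.3 to 43.5 CPM in control. Of the immediate early genes 9 were tested and 0 passed in edgeR, with 1 at an unadjusted p under 0.05, and DESeq2 called 0. That gene, Btg2, had 220, 107 and 149 CPM in D1, D2 and D3 against 97.7 to 114 CPM in control. It was the 1 of the 9 tested genes with D1 and D3 above the other libraries, against 8.61% of all tested genes. Nr4a1, a stress-induced transcription factor gene, was at 148 CPM in D1 against at most 45.4 CPM in the other hearts. Atf3, another such gene, was highest in D1, at 150 CPM, and its 15.6 and 12.4 CPM in D2 and D3 were also above the 7.26 to 8.52 CPM of the controls.

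Some markers of cell types also differed between D1, D3 and the other hearts. Over all tested genes, 8.61% had D1 and D3 above the other libraries and 10.2% had them below. Of 4 fibroblast markers, Col1a1 and Col3a1 were lowest in D1 and D3 and highest in D2, while Dcn and Pdgfra did not have D1 and D3 outside the other libraries. Dcn was at 830, 954 and 1038 CPM in D1, D2 and D3 against 522 to 902 CPM in control, and Pdgfra was at 67.1, 86.7 and 81.9 CPM against 64.2 to 84.6 CPM. The list summed to 1662, 2793 and 1712 CPM in D1, D2 and D3 against 2001 to 2231 CPM in control. Of 4 atrial markers, Nppa, also a gene of the stressed ventricle, was at 3252 and 902 CPM in D1 and D3 against 161 to 444 CPM in the other hearts. The atrial light chain gene Myl7 was instead high in C1, at 164 CPM against at most 6.42 CPM elsewhere. Myl4 was also highest in C1, at 68.4, 8 and 6.53 CPM in the controls, and was at 26, 5.3 and 13.6 CPM in D1, D2 and D3. Sln was at 22.9, 0 and 16.8 CPM in the controls and at 1.93, 0.312 and 0 CPM in D1, D2 and D3. The 4 endothelial markers had no member with D1 and D3 outside the other libraries, at 776 to 886 CPM in control and 629 to 816 CPM in doxorubicin in sum. Of 4 macrophage markers, 1, Cd163, was above in D1 and D3, whereas Cd68, C1qa and Csf1r were each highest in D2. C1qa was at 41.7, 62.1 and 32.7 CPM and Csf1r at 31.1, 54 and 30.4 CPM in D1, D2 and D3. The macrophage list summed to 77.5 to 87.1 CPM in control and to 98.5, 135 and 84 CPM in D1, D2 and D3. Of the blood markers, Hbb was detected, at 142 to 831 CPM in control and 45.3 to 300 CPM in doxorubicin libraries, and Alas2 was listed at 0. Of 2 brown fat markers, Ucp1 was listed at 0, and Cidea was at 123 to 148 CPM in control and 77.8 to 92.8 CPM in doxorubicin libraries, lower in all 3. The part of these markers in the clock differences was not tested, and each clock transcript can come from any of these cell types.

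The genes most like the clock genes in pattern were found by the root mean square difference of log2 CPM, centred on each gene's mean, over the 6 libraries. Nearest to Dbp among genes outside the 10 were Nppa (0.75), Slc6a6 (0.78), Jade2 (0.78), Nuak1 (0.80) and Tbx20 (0.81), against a median of 1.41 over all tested genes. The nearest gene of all to Dbp was the member Per3, at 0.70, while the members Nr1d1 and Per1 ranked 243 and 875. Since the members were chosen for a shared pattern, likeness among them is description only. Nearest to Arntl were Auts2l1 (0.52), Gzmc (0.55), Tmem171 (0.58), Igsf8 (0.62) and Mycn (0.64), against a median of 1.26, and the member Cry1 ranked 3 among all tested genes at 0.55. Auts2l1 had 80.6, 90.6 and 73.8 CPM in the controls and 24.4, 63.7 and 24.5 CPM in D1, D2 and D3. Nearest to Nr1d2, a reference gene added after its values were seen, was Bhlhe40, at 0.19 against a median of 0.87. Dbp stood at 0.92 from Nr1d2, farther than that median. Among the 20 genes with D1 and D3 at least 2-fold beyond all other libraries, 11 were above, 3 of them members, and 9 were below, 2 of them members. Those outside the 10 and above were Atoh8, Bhlhe40, Nppa, Slc6a6, Slco5a1, Spp1, Tbx20 and Tgfb2.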

How the data were processed

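Heart mRNA of 6 rats was sequenced on a NovaSeq instrument from Watchmaker libraries, per the labels' protocols. The deposited values are unnormalized counts of reads for each annotated feature, with a column for each library. FastQC, Trimmomatic, STAR, HTSeq and the build mRatBN7.2 are named in the submitters' processing notes; the annotation, the strand setting and the treatment of shared reads are not given in the sources used here. The table held 18473 rows under 17487 symbols, 599 of them on several rows, and rows of a symbol were summed.

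Groups came from the sample titles. Doxorubicin was compared with control by edgeR 4.0.16 (R 4.3.3; quasi-likelihood F test, robust dispersion, TMM factors, filterByExpr with a minimum count of 10 and a minimum total of 15), with Benjamini-Hochberg adjustment over all 9205 genes tested and a threshold of 0.05. The fit was tested on simulated data. A standard error is the absolute log2 fold change divided by the square root of F. Log2 CPM used a prior count of 2. Nothing in the labels ties the libraries to batches. A p-value sets the difference between the groups against the spread within them over these 6 samples. The distance of D2 from D1 and D3 counts there as spread. The members, gene lists, tests and motifs were chosen with earlier results of these data known. Named genes were the 10 members; listed clock genes past the threshold or fixed by name; genes of other lists past the threshold, or with D1 and D3 at least 2-fold beyond the other libraries; up to 3 of any list by mean level; and the 5 genes of mean CPM of at least 5 nearest in pattern to Dbp and to Arntl. Other genes in the text were picked with their values known. Alternatives were other scaling, filters, DESeq2 1.42.0, the replicate number as a block, the largest row per symbol and leaving out each library. Python 3.11.15 with pandas 2.3.3, scipy 1.17.1 and matplotlib 3.10.9 handled tables, intervals and figures.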

Additional observations from a re-analysis of the deposited data

How the results depend on the processing

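All 10 clock genes kept the sign of their log2 fold change in 13 alternatives, except Per1 without D1. The values of Arntl (-2.57 to -0.49) and Cry1 (-1.56 to -0.61) moved by more than the replicate spread only without D2. The median of the 10 lay between 0.51 and 0.64 over changes of setting and between 0.38 and 0.79 when 1 library was left out. Scaling by library size alone shifted the all-gene median from 0.02 to 0.10. With the largest row per symbol in place of sums, the 5 calls over all genes stayed 5 in number.

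Against 5 calls over all genes, library size alone gave 0, no filter 61, a mean CPM of at least 5 gave 1, DESeq2 gave 75, and leaving out 1 library gave 0 to 35, with 35 without D2. Of the other clock genes DESeq2 called 1, and the fits without a library called 0 to 2, the 2 being Bhlhe40 and Ciart without D2. Leaving out D2 removes the heart that the choice of members set apart, and Ciart enters that fit through D1 and D3 alone, so these calls support nothing; in the other 5 such fits the adjusted p of Bhlhe40 in edgeR was 0.351 to 0.81. At an unadjusted p under 0.05 the other clock genes numbered 1 to 7 without a library, against 2. Of the clock output genes library size alone called 0, no filter 2, DESeq2 2 and the fits without a library 0 to 1. Of the glucocorticoid genes no filter and DESeq2 each called 1, Pdk4. Csnk1e became 0.09 with library size alone and 0.01 with a mean CPM of at least 5, and ran from -0.11 to 0.12 without a library, as Csnk1d did from -0.26 to 0.15. The cause of these changes was not tested. Counts of 2 to 50 for Dbp, 6 to 81 for Per3 and 9 to 32 for Nr1d1 limit those genes.

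With the replicate number as a block there were 13 calls over all genes, 2 clock output genes, 1 glucocorticoid gene (Pdk4), an Arntl value of -1.54 and a Csnk1d value of -0.02. The labels describe no pairing of rats, and the correlations of the deviations of same-numbered libraries were 0.02, -0.19 and -0.06.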
